A study of Mus musculus with 2 samples.

Results

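Mpo-high Elane-low cells are cells of the mouse LSK gate that carried many transcripts of myeloperoxidase (Mpo) and few or none of neutrophil elastase (Elane). They were chosen by their counts of unique molecular identifiers (UMIs, distinct RNA molecules): at least 20 of Mpo, under 5 of Elane, under 3 of Irf8, under 2 of Ngp, under 5 of H2-Aa and 0 of Ms4a2, in cells that passed the deposited quality call. The rule found 586 cells, 3.25% of those that passed: 352 of 7683 in replicate 1 and 234 of 10346 in replicate 2. The cells came from marrow of young IkBKO mice, which the labels describe as IκB-negative, and of young WT mice, and no treatment is stated for either. LSK cells are lineage-negative, Sca-1-positive and Kit-high, and both genotypes were sorted by the same gate. For each replicate 30000 sorted cells per condition were marked with hashing antibodies, and IkBKO and WT cells were run in 1 droplet library that counted the 3′ ends of transcripts. The altered IκB genes and the mice behind each pool were not given in the sources used here.

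The LSK gate holds haematopoietic stem cells and multipotent progenitors, some of which are already biased towards the myeloid lineage. Myeloperoxidase, cathepsin G (Ctsg), proteinase 3 (Prtn3) and elastase are stored in the azurophil granules of neutrophils, and their genes are switched on in progenitors, long before a neutrophil forms. Irf8 encodes a transcription factor of monocyte and dendritic cell precursors, Ngp a protein of later neutrophil granules and Ms4a2 a subunit of the IgE receptor of mast cells and basophils, so the rule leaves cells on those paths out. IκB proteins bind NF-κB and keep it out of the nucleus, where it drives many genes of inflammation and antigen presentation.

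The WT cells of replicate 2 were few, and this limits each genotype comparison. The UMIs of the Mpo-high Elane-low cells were summed per genotype and replicate into 4 pools, of 271 and 228 IkBKO cells and of 81 and 6 WT cells. The pools held 4695025 and 4126691 UMIs from IkBKO cells and 1525498 and 128667 UMIs from WT cells, so that 3 UMIs in the WT pool of replicate 2 equal 23.3 CPM (UMIs of a gene scaled to a pool total of 1e6). Of the 6 cells in that pool, 2 had more counts of the hashing tag of IkBKO cells than of the WT tag, although the deposited table calls them WT. The same held for 1 of the 81 WT cells of replicate 1 and for no IkBKO cell of the population. Among all passing WT cells it held for 24 of 3721 in replicate 1 (0.645%) and 46 of 4963 in replicate 2 (0.927%). Values without the WT pool of replicate 2, and without the cells whose tags went against their call, are given below for the counts of calls, and for single genes where a pool decides the call. No Mpo-high Elane-low cell had a barcode found in both libraries, whereas 39 passing barcodes of the series were.

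**Figure D1:**
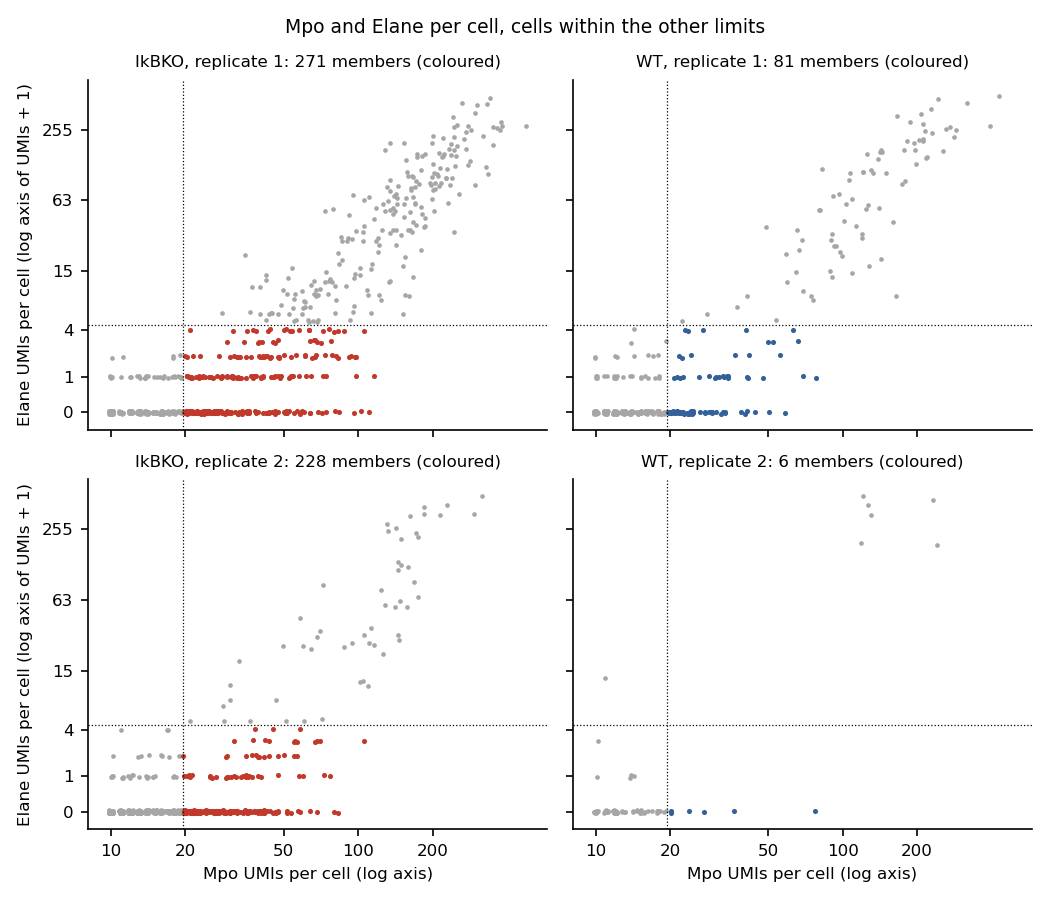
Each point is 1 cell, placed by its Mpo UMIs (horizontal) and Elane UMIs (vertical), for cells within the limits on Irf8, Ngp, H2-Aa and Ms4a2 and with at least 10 Mpo UMIs. Coloured points met the whole rule, 271 and 228 cells in the IkBKO panels on the left and 81 and 6 cells in the WT panels on the right, with replicate 1 above replicate 2.

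The population took a larger share of the LSK cells of IkBKO mice than of WT mice in both libraries. In replicate 1 it made up 271 of 3962 IkBKO cells (6.84%, exact 95% interval 6.07 to 7.67) and 81 of 3721 WT cells (2.18%, 1.73 to 2.70), a ratio of 3.14 (2.46 to 4.01). In replicate 2 it made up 228 of 5383 IkBKO cells (4.24%, 3.71 to 4.81) and 6 of 4963 WT cells (0.121%, 0.044 to 0.263), a ratio of 35.0 (15.6 to 78.7). Without the cells whose tags went against their call, 4 of 4917 WT cells remained there, a ratio of 52.1 (19.4 to 140). The direction was the same in both libraries while the size differed. These intervals cover counting error only, and an exact permutation test over 4 pools cannot give a two-sided p below 0.333. The shares are of cells sorted by Sca-1, which Ly6a encodes. In this population Ly6a was at 59.0 and 47.5 CPM in IkBKO pools and at 9.83 and 23.3 CPM in WT pools. Whether the gate took in cells differently by genotype was not tested.

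The rule counts raw UMIs, and IkBKO cells held more UMIs per cell than WT cells of the same library. Medians over all passing cells were 13709 and 9641 in IkBKO against 9963 and 6983 in WT. Among the Mpo-high Elane-low cells themselves the medians were 16467 and 17822 UMIs in IkBKO pools and 18306 and 20181 UMIs in WT pools. When each cell was thinned to 6000 UMIs and the limits were scaled to that depth, with Mpo at 8 or more, the population made up 9.98% and 7.84% of IkBKO cells and 3.42% and 0.627% of WT cells. These shares leave out cells under that depth, and their ratios were 2.92 in replicate 1 and 12.5 in replicate 2. The larger share in IkBKO cells was thus also seen at equal depth, with a smaller ratio in replicate 2.

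Cells just under the Mpo limit did not all follow this pattern. With Mpo at 10 to 19 UMIs and the other limits kept, there were 202 IkBKO cells (5.10%) and 197 WT cells (5.29%) in replicate 1, a ratio of 0.963, and 342 IkBKO cells (6.35%) and 63 WT cells (1.27%) in replicate 2, a ratio of 5.01. At the edge itself, 18 or 19 Mpo UMIs were counted in 29 and 33 IkBKO cells and in 18 and 9 WT cells, whereas 20 or 21 were counted in 35 and 43 IkBKO cells and in 14 and 2 WT cells. With the same limits but at least 5 Elane UMIs, there were 221 and 54 IkBKO cells (5.58% and 1.00%) and 82 and 6 WT cells (2.20% and 0.121%). These Elane-positive cells serve below as the nearest related population.

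**Figure D2:**
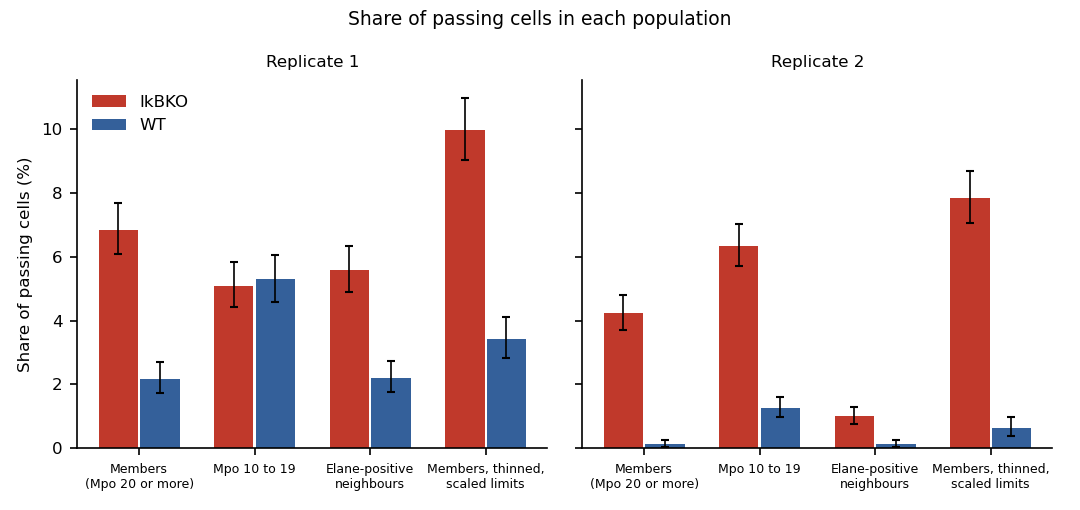
Bars give the percent of passing LSK cells, IkBKO left of WT in each replicate, for the Mpo-high Elane-low cells, for cells with 10 to 19 Mpo UMIs, for Elane-positive cells and for the rule scaled to 6000 UMIs per cell. Whiskers are exact 95% intervals for counting error, and the bar of the population in WT cells of replicate 2 stands for 6 cells (0.121%).

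The 4 genes given as marks of the population were detected at differing levels. Mpo, which converts hydrogen peroxide and chloride to hypochlorous acid (ENSMUSG00000009350, mm10 chromosome 11, 87793581 to 87804413), had median counts of 34 and 29 UMIs per cell in IkBKO pools and 27 and 26 in WT pools. This follows from the rule and is given as a description. Ctsg, a granule serine protease (ENSMUSG00000040314, chromosome 14, 56099881 to 56102574), had medians of 22 and 20 UMIs per IkBKO cell and 15 and 8 per WT cell. Rab44, a large Rab GTPase, had a UMI in 71.6% and 75.9% of IkBKO cells and in 77.8% and 33.3% of WT cells. At 6000 UMIs per cell these shares were 42.1% and 42.5% in IkBKO and 34.6% and 33.3% in WT, against 11.3% and 13.2% of IkBKO and 6.14% and 4.10% of WT lymphoid-primed cells, those with at least 5 Dntt UMIs. Anxa3, an annexin of neutrophil granules, had a UMI in 43.9% and 40.8% of IkBKO cells and in 35.8% and 66.7% of WT cells. At 6000 UMIs per cell its shares were 20.7% and 16.7% in IkBKO and 9.88% and 0% in WT, against 6.10% and 9.78% of IkBKO and 8.60% and 6.66% of WT lymphoid-primed cells. In WT cells Anxa3 was thus not set apart from the lymphoid level at this depth.

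Mpo and Ctsg UMIs were also found in lymphoid-primed cells, and the part of free RNA in the droplets was not tested. At 6000 UMIs per cell, Mpo averaged 13.9 and 11.7 UMIs per Mpo-high Elane-low IkBKO cell and 10.5 and 9.83 per WT cell. At the same depth any Mpo UMI was found in 63.4% and 63.8% of IkBKO and in 56.3% and 43.7% of WT lymphoid-primed cells. A Ctsg UMI was found in 32.9% and 34.2% of those IkBKO lymphoid cells and in 21.6% and 11.3% of the WT ones. Shares of cells with a UMI are therefore set beside those of lymphoid-primed cells.

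By their other transcripts the cells lay between cells with less Mpo on the one hand and Elane-positive cells on the other. Hlf, a transcription factor of stem cells, stood at 43.0 and 107 CPM in IkBKO pools and at 86.5 and 85.5 CPM in WT pools. In cells with 10 to 19 Mpo UMIs it was higher, at 84.3 and 169 CPM in IkBKO and 169 and 240 CPM in WT, and in Elane-positive cells lower, at 14.2 and 21.7 CPM in IkBKO and 16.4 and 62.9 CPM in WT. The homeobox gene Meis1 and the cytokine receptor Flt3 followed the same order in each of the 4 pools.

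The granule genes ran in the opposite order. Ctsg stood at 594 and 572 CPM in IkBKO and 388 and 297 CPM in WT cells with 10 to 19 Mpo UMIs, and at 3994 and 3821 CPM in IkBKO and 4322 and 5849 CPM in WT Elane-positive cells, with the Mpo-high Elane-low cells between. Ms4a3, which marks granulocyte and monocyte progenitors in mice, stood at 127 and 36.1 CPM in IkBKO and 26.9 and 23.3 CPM in WT Mpo-high Elane-low cells, against 859 and 718 CPM in IkBKO and 823 and 1747 CPM in WT Elane-positive cells. Cebpe, the transcription factor of the promyelocyte to myelocyte step, was near the floor at 4.69 and 2.67 CPM in IkBKO and 5.24 and 0 CPM in WT Mpo-high Elane-low cells. Fcnb, a ficolin of maturing neutrophils, was at 0.21 and 0 CPM in IkBKO and 0.66 and 0 CPM in WT. Cells were placed in these populations by Mpo and Elane, so the order of the levels is a description without a test, and no order in time was measured. Median UMIs per cell also differed. They were 13366.5 and 13090.5 in IkBKO and 15005 and 16147 in WT cells with 10 to 19 Mpo UMIs. In Elane-positive cells they were 23061 and 22800.5 in IkBKO and 23310 and 20160.5 in WT.

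**Figure D3:**
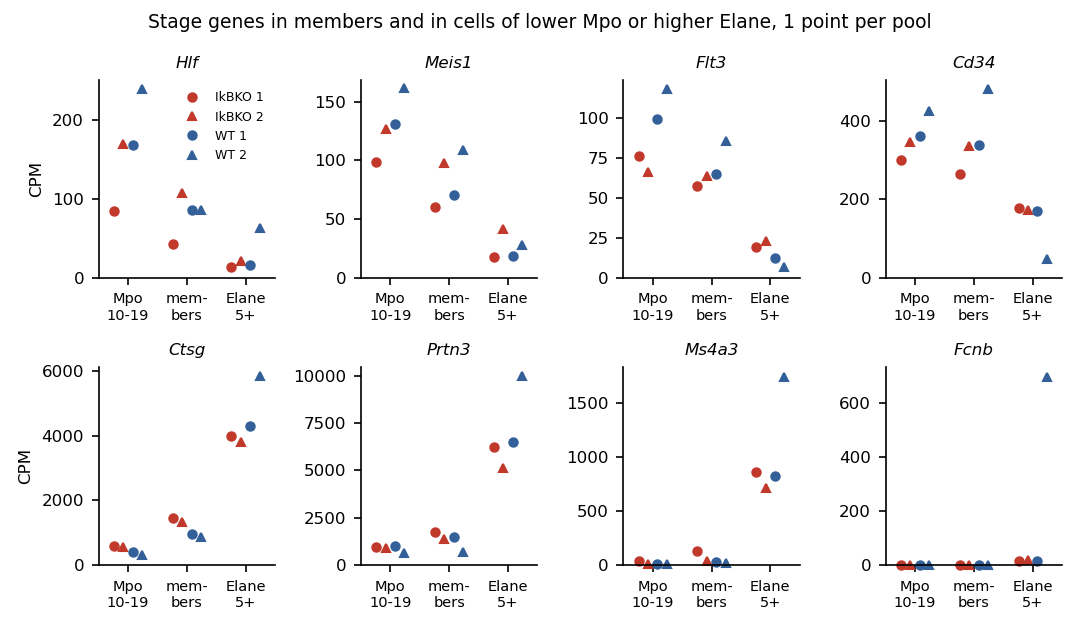
CPM of 8 genes in cells with 10 to 19 Mpo UMIs, in the Mpo-high Elane-low cells and in Elane-positive cells. The axis is linear, with 1 point per pool and IkBKO pools first in the legend. Hlf, Meis1 and Flt3 fall along this order and Ctsg and Ms4a3 rise, and the Mpo-high Elane-low values lie between those of the other populations.

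Transcripts that define other mature cells were scarce. Summed over 10 mature neutrophil genes, the level was 65.2 and 16.5 CPM in IkBKO pools and 42.0 and 23.3 CPM in WT pools, against 679 and 594 CPM in IkBKO and 391 and 13914 CPM in WT Elane-positive cells. For 11 monocyte and dendritic genes it was 160 and 131 CPM in IkBKO and 88.5 and 46.6 CPM in WT, for 8 mast cell and basophil genes 106 and 64.5 CPM in IkBKO and 70.8 and 140 CPM in WT, and for 9 B cell genes 34.7 and 31.0 CPM in IkBKO and 57.0 and 15.5 CPM in WT. Surface protein was counted in replicate 1, where CD48, absent from stem cells in mice and present on most later progenitors, had a median of 693 antibody counts in IkBKO and 684 in WT Mpo-high Elane-low cells, against 568 in IkBKO and 475 in WT passing cells. The rule limits Ngp, a gene of the neutrophil list, and Ms4a2, a gene of the mast cell list, and also Irf8 and H2-Aa. The few marks of mature cells are thus set in part by the selection and are a description. Of the label's myeloid progenitor marks, Ctsg and Rab44 were detected in both genotypes, while the level of Mpo follows from the rule. Anxa3 in WT cells was not set apart from lymphoid-primed cells at equal depth, as given above, so the label's marks were not all borne out in WT cells.

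RNA levels of the population were then compared between IkBKO and WT mice. Of 9971 genes tested with edgeR's quasi-likelihood test, with the library as a block and adjusted p-values of at most 0.05, 63 were higher in IkBKO cells (0.632% of the genes) and 33 were lower (0.331%). The 63 include Mpo and H2-Aa, whose levels the selection rule limits and which are therefore no findings. Each fold change is that of IkBKO relative to WT, in log2 units with its standard error (SE), and levels are CPM of each pool. The mice behind the pools are not stated, so the p-values measure the spread between 4 pools, which may be technical. DESeq2 called 9 higher (0.238% of 3785) and 4 lower (0.106%). With the Mpo limit lowered to 10 UMIs, which gives WT pools of 278 and 69 cells, edgeR called 339 higher (3.01% of 11244) and 222 lower (1.97%). Without the WT pool of replicate 2 the counts were 35 higher and 14 lower, and without cells whose tags went against their call 39 and 15. Of the 43 named genes that passed, 18 still passed without the WT pool of replicate 2, 8 without the IkBKO pool of replicate 1, 31 without the IkBKO pool of replicate 2, and 4 (AA465934, Ccl9, Ighm and Prtn3) without the WT pool of replicate 1, when the 6 cells stand alone for WT. Without the cells whose tags went against their call 34 of the 43 still passed, and AA465934 was the gene that passed in all 16 alternatives.

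Among the named genes, the largest differences lay in a few that WT cells of this population barely expressed. AA465934, a noncoding processed transcript (ENSMUSG00000093483, chromosome 11, 83291699 to 83294632), was at 203 and 139 CPM in IkBKO pools against 9.83 and 38.9 CPM in WT pools. It rose by 4.04 ± 0.25 SE (edgeR adjusted p = 2.67e-52). It had a UMI in 91.5% and 87.3% of IkBKO cells against 14.8% and 33.3% of WT cells, and in 80.8% and 74.8% of IkBKO against 7.55% and 4.32% of WT lymphoid-primed cells, so the lymphoid-primed cells split by genotype in the same direction. All 5 of its UMIs in the WT pool of replicate 2 came from the 2 cells whose hashing tags went against their call, and its value without such cells was 4.46. Ccl5, a chemokine that attracts T cells and monocytes, lies on the same chromosome (83525778 to 83530518), as does Ccl9 (83572919 to 83578636). Ccl5 was at 61.6 and 46.3 CPM in IkBKO pools against 0.656 and 0 CPM in WT pools. In replicate 1 this is a ratio of 93.9 with a counting interval of 16.7 to 3722, since the WT pool held 1 UMI. A single cell held 178 of the 289 Ccl5 UMIs in the IkBKO pool of replicate 1, and another 55 of the 191 in replicate 2, while 22.1% and 21.1% of IkBKO cells against 1.23% and 0% of WT cells had any. Without the WT pool of replicate 1 it did not pass (edgeR adjusted p = 0.053).

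Gdpd3, a phosphodiesterase that makes lysophosphatidic acid (ENSMUSG00000030703, chromosome 7, 126766334 to 126775649), was at 36.0 and 26.7 CPM in IkBKO pools against 1.31 and 0 CPM in WT pools. In replicate 1 the ratio was 27.5 with a counting interval of 7.48 to 229, from 2 WT UMIs, and the gene passed (edgeR adjusted p = 1.48e-14) but not without the WT pool of replicate 1 (edgeR adjusted p = 0.36). It had a UMI in 35.4% and 26.3% of IkBKO cells and in 2.47% and 0% of WT cells, against 29.2% and 18% of IkBKO and 2.52% and 0.836% of WT lymphoid-primed cells. Serpina3g, a serine protease inhibitor of the cytosol (ENSMUSG00000041481, chromosome 12, 104236245 to 104241939), was at 218 and 118 CPM in IkBKO against 59.0 and 46.6 CPM in WT and rose by 1.90 ± 0.18. App, the amyloid precursor protein, was at 37.3 and 22.8 CPM in IkBKO against 5.24 and 7.77 CPM in WT and rose by 2.77 ± 0.40. The WT pools held 8 and 1 App UMIs. Its call was lost in 4 of 14 alternatives, among them the fit without the WT pool of replicate 1. Pim1, a kinase induced by cytokines, was at 244 and 286 CPM in IkBKO against 117 and 124 CPM in WT (1.15 ± 0.15), and lost its call without the WT pool of replicate 1 (1.31). Serpina3g has close paralogs in its cluster that 3′ counts may not separate, and its call was lost without the IkBKO pool of replicate 1 (1.02) and without the WT pool of replicate 1 (2.10).

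**Figure D4:**
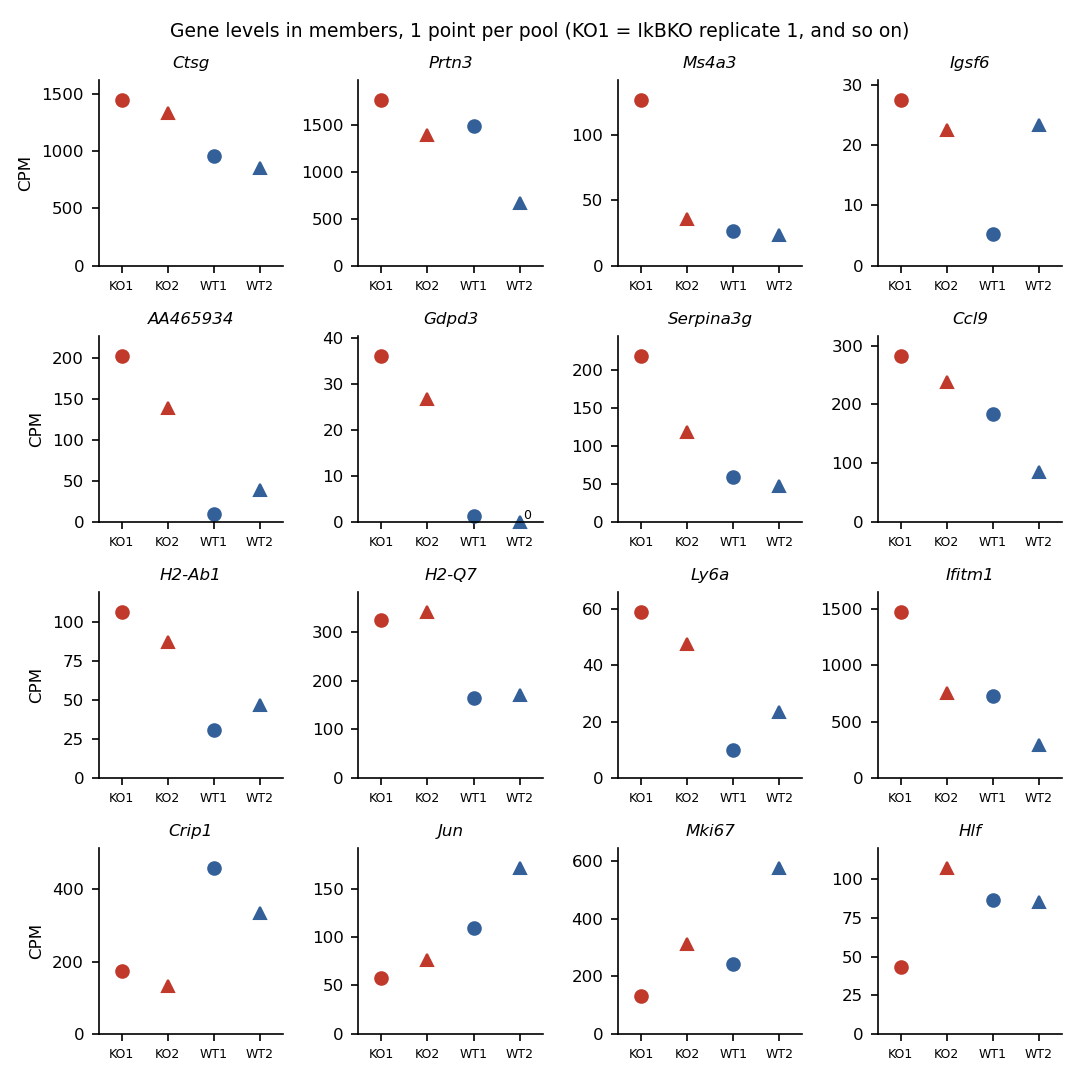
CPM of 16 genes in the Mpo-high Elane-low cells, 1 point per pool, with IkBKO replicates 1 and 2 left of WT replicates 1 and 2. AA465934 (203 and 139 against 9.83 and 38.9) and Gdpd3 (36.0 and 26.7 against 1.31 and 0) separate the genotypes widely, while Hlf and Prtn3 vary as much within a genotype as between them.

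Promoters of genes that rose were read for short patterns, and 3 are printed because they hold a match in a gene described here. They are the 250 bases before the RefSeq start, build GRCm38.p6, on the strand of the gene, with the matches in capitals. They were chosen after the matches were seen.
Serpina3g, chr12:104235897-104236146, plus strand: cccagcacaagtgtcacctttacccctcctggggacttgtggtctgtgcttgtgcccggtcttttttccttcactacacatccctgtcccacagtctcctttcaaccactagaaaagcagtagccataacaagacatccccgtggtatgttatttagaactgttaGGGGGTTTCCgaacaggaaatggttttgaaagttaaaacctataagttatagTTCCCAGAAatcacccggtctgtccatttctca
H2-Q7, chr17:35438905-35439154, plus strand: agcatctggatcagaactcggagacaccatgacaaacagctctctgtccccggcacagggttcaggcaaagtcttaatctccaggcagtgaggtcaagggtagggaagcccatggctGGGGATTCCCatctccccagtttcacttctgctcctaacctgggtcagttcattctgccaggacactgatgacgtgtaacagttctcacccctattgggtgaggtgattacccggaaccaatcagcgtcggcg
Ctsg, chr14:56102575-56102824, minus strand: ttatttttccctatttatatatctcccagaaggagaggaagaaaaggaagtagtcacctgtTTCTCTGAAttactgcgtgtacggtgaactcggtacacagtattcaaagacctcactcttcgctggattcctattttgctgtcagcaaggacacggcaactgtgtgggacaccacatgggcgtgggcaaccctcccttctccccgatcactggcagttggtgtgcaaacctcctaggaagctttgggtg
In Serpina3g the capitals mark the NF-κB pattern (3 G, any 2 bases, 2 T, any base, 2 C) and then the STAT pattern TTCNNNGAA on either strand, in H2-Q7 the NF-κB pattern, and in Ctsg the STAT pattern. The NF-κB pattern occurred in such windows of 4.71% of 27025 genes, in 10 of the 48 genes with higher levels that matched the promoter table and in none of the 24 matched genes with lower levels. Among those 10 are B2m, Ccl9, H2-D1, H2-Q4, H2-Q7, Serpina3f and Serpina3g, of which the H2 and Serpina3 genes have near-identical copies. H2-Aa is also among the 10, and the selection rule limits its level, so its rise is no finding. The STAT pattern occurred in 8.13% of all genes, in 7 of the 48 with higher levels and in 2 of the 24 with lower levels. A further 3 patterns were searched on both strands: for C/EBP, TTGCNNAA was in 10.8% of genes, 5 of 48 and 1 of 24, for AP-1, TGANTCA was in 7.82%, 4 of 48 and 0 of 24, and a narrower NF-κB pattern with 3 T in a row, which overlaps the first, was in 1.65%, 5 of 48 and 0 of 24. A match describes letters and is not a binding site.

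Some granule genes were higher in IkBKO cells. Of the 17 granule and early myeloid genes tested that the rule did not use, 5 rose (Ctsg, Prtn3, Ms4a3, Hp and Igsf6) and none fell, and the median of these 17 was 0.24, against 0.01 over all genes tested. Among all genes tested 0.632% rose. Ctsg was at 1448 and 1332 CPM in IkBKO pools against 961 and 855 CPM in WT pools, without overlap, a rise of 0.70 ± 0.11 (edgeR adjusted p = 1.61e-07). Its call was lost when any 1 pool was left out, with values of 0.53 to 0.93. Prtn3, the protease of the neighbouring gene to Elane, was at 1762 and 1394 CPM in IkBKO against 1485 and 668 CPM in WT (0.59 ± 0.11), and did not pass without the WT pool of replicate 2 (0.09) or either IkBKO pool (0.33 and 0.79). Ms4a3 rose by 2.19 ± 0.25, but without the IkBKO pool of replicate 1 its value was 0.41 and did not pass. Its call was lost in 5 of 16 alternatives, among them also the fit without the WT pool of replicate 1. Hp, which encodes haptoglobin, rose by 1.51 ± 0.36, at 30.9 and 13.1 CPM in IkBKO against 11.8 and 0 CPM in WT. It did not pass without the WT pool of replicate 2 (0.92) or the IkBKO pool of replicate 1 (0.23). Nor did it pass without the WT pool of replicate 1, where its value was 9.07 against a WT pool at 0 CPM. Igsf6, an immunoglobulin-family receptor of myeloid cells, was at 27.5 and 22.5 CPM in IkBKO against 5.24 and 23.3 CPM in WT, so its difference came from replicate 1.

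Ctsg was higher in cells with more Mpo, and the IkBKO cells had more Mpo. At 6000 UMIs per cell and 8 to 11 Mpo UMIs, Ctsg averaged 6.79 and 6.86 UMIs in 78 and 83 IkBKO cells and 5.48 and 6.33 UMIs in 25 and 3 WT cells. At 12 to 19 Mpo UMIs the averages were 8.78 and 9.16 UMIs in 114 and 87 IkBKO cells and 5.67 and 8.0 UMIs in 30 and 2 WT cells. The WT values of replicate 2 rest on 3 and 2 cells, and none of these values was tested. Mpo is a gene of the selection rule, and its part in the Ctsg difference was not tested. With cells thinned to that depth before the rule was applied, the Ctsg difference was −0.041, with 1 WT cell in replicate 2. Prtn3 in the range of 12 to 19 Mpo UMIs averaged 10.3 and 9.60 UMIs in IkBKO cells and 10.4 and 7.0 UMIs in WT cells.

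The regulators and receptors of the lineage did not pass the test. Of 11 myeloid transcription factors tested, 0 rose and 0 fell. Spi1, which encodes the master regulator PU.1, was at 186 and 160 CPM in IkBKO pools against 163 and 124 CPM in WT pools (0.29), and Cebpa, needed to form granulocyte and monocyte progenitors, was at 70.1 and 36.8 CPM in IkBKO against 64.2 and 38.9 CPM in WT (0.17). Of 17 growth factor and inflammatory receptors, 0 rose and 0 fell, with log2 values of −0.41 for Kit, the receptor of stem cell factor, and −0.15 for Flt3. A miss of the threshold does not show equal levels: in simulated pools of this size, 34.5% of genes changed 2-fold and 7.59% of genes changed 1.5-fold were called. These rates hold for the same spread set for all genes and pools, and the real rates may differ.

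The IκB and NF-κB family gave no call in this population. Nfkbib, which encodes IκBβ, came closest, at 5.96 and 8.0 CPM in IkBKO pools against 18.4 and 15.5 CPM in WT pools, without overlap (−1.45 ± 0.43, edgeR adjusted p = 0.067). Nfkbia, which encodes IκBα, differed by 0.16 ± 0.27, and Relb, an NF-κB subunit of the noncanonical pathway, by 2.5 ± 0.99 (edgeR adjusted p = 0.37). Of 13 members tested none passed, and Nfkbie, which encodes IκBε, was filtered for low counts. In cells with 10 to 19 Mpo UMIs Nfkbib fell by −1.48 ± 0.30 (edgeR adjusted p = 9.54e-05). Bcl3 rose there by 1.72 ± 0.34 (edgeR adjusted p = 6.07e-05), and no other gene of the family passed. In Elane-positive cells Nfkbib was at −1.87 and did not pass. Of 19 genes of the NF-κB response, 2 rose, against 0.632% of all genes tested. Both are chemokines, Ccl5 and Ccl9. Ccl9 was at 282 and 239 CPM in IkBKO against 184 and 85.5 CPM in WT (0.80 ± 0.14), and did not pass without the WT pool of replicate 2 (0.50) or either IkBKO pool (0.59 and 0.96). Ccl3 and Ccl4, chemokines of the same family, had values of −1.12 and −1.13 and did not pass.

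Some antigen presentation genes were higher. Of 9 genes of the MHC class II pathway tested besides H2-Aa, 3 rose and none fell: H2-Ab1 and H2-Eb1, which encode chains of class II molecules, and Cd74, the invariant chain. Among all genes tested 0.632% rose. Summed over the 12 listed genes, the level was 483 and 412 CPM in IkBKO pools and 269 and 412 CPM in WT pools, so the summed level was higher in IkBKO in replicate 1 and level between the genotypes in replicate 2. H2-Ab1 was at 106.5 and 87.5 CPM in IkBKO pools against 30.8 and 46.6 CPM in WT pools (1.74 ± 0.23). H2-Eb1 was at 34.3 and 17.7 CPM in IkBKO against 5.24 and 0 CPM in WT (2.82 ± 0.43). Cd74 was at 54.3 and 19.9 CPM in IkBKO against 6.56 and 31.1 CPM in WT, so it was higher in replicate 1 only. The rule caps H2-Aa at 4 UMIs, and this limits how high class II levels can be. Of the cells with at least 20 Mpo UMIs, 9 and 16 IkBKO cells and 0 and 2 WT cells exceeded that cap. Other limits of the rule may have left out some of these cells as well. Without the WT pool of replicate 1 none of these 3 genes passed, and without the IkBKO pool of replicate 1 H2-Eb1 (1.81) and Cd74 (1.15) did not either.

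Of 15 genes of MHC class I and the immunoproteasome, 5 rose (B2m, H2-D1, H2-Q4, H2-Q7 and H2-T22) and none fell, with a list median of 0.42. Among all genes tested 0.632% rose, with a median of 0.01. The summed level was 5502 and 5289 CPM in IkBKO and 4256 and 4617 CPM in WT. H2-Q7 (ENSMUSG00000060550, chromosome 17, 35439155 to 35443773), a nonclassical class I gene, was at 326 and 342 CPM in IkBKO pools against 164 and 171 CPM in WT pools, the same difference in both libraries. It rose by 1.07 ± 0.13 (edgeR adjusted p = 2.62e-12) and by 1.02 without the WT pool of replicate 2. Without a pool of replicate 1 it did not pass, at 1.04 without the IkBKO pool and 1.19 without the WT pool. B2m, the light chain shared by class I molecules, was at 1358 and 1288 CPM in IkBKO against 1012 and 1150 CPM in WT (0.42 ± 0.11), and passed in none of the fits that left out a pool. The same held for H2-D1, H2-Q4 and H2-T22. Reads of H2-Q and H2-T genes may be shared between near-identical copies, so single members are uncertain.

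Of 24 interferon-stimulated genes tested, 8 rose and none fell, with a median of 0.43. Over all genes tested 0.632% rose, and the median was 0.01. Ifitm1, a membrane protein that restricts virus entry, was at 1474 and 756 CPM in IkBKO pools against 729 and 295 CPM in WT pools. It rose by 1.17 ± 0.12, but the replicates differed about as much as the genotypes, and the value was 0.46 without the IkBKO pool of replicate 1 and 0.63 without the WT pool of replicate 2, neither of which passed. Ly6a, which encodes the gate marker Sca-1 (ENSMUSG00000075602, chromosome 15, 74994877 to 74998031), was at 59.0 and 47.5 CPM in IkBKO against 9.83 and 23.3 CPM in WT (2.43 ± 0.33), and was 1.43 without the WT pool of replicate 1, where it did not pass. The guanosine triphosphatases Igtp, Gbp3 and Iigp1 rose by 1.88, 1.64 and 2.31. None of these 3 passed without the IkBKO pool of replicate 1 (1.31, 1.43 and 0.95) or the WT pool of replicate 1 (1.77, 1.04 and 1.57). The others were Ly6e, Ifitm2 and Ifitm3, with rises of 0.58, 0.45 and 0.46, and none of them passed when any 1 pool was left out. With cells thinned before the rule Ly6e was at −0.22. Ifi27l2a was lower without passing, at −1.14 (edgeR adjusted p = 0.053).

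**Figure D5:**
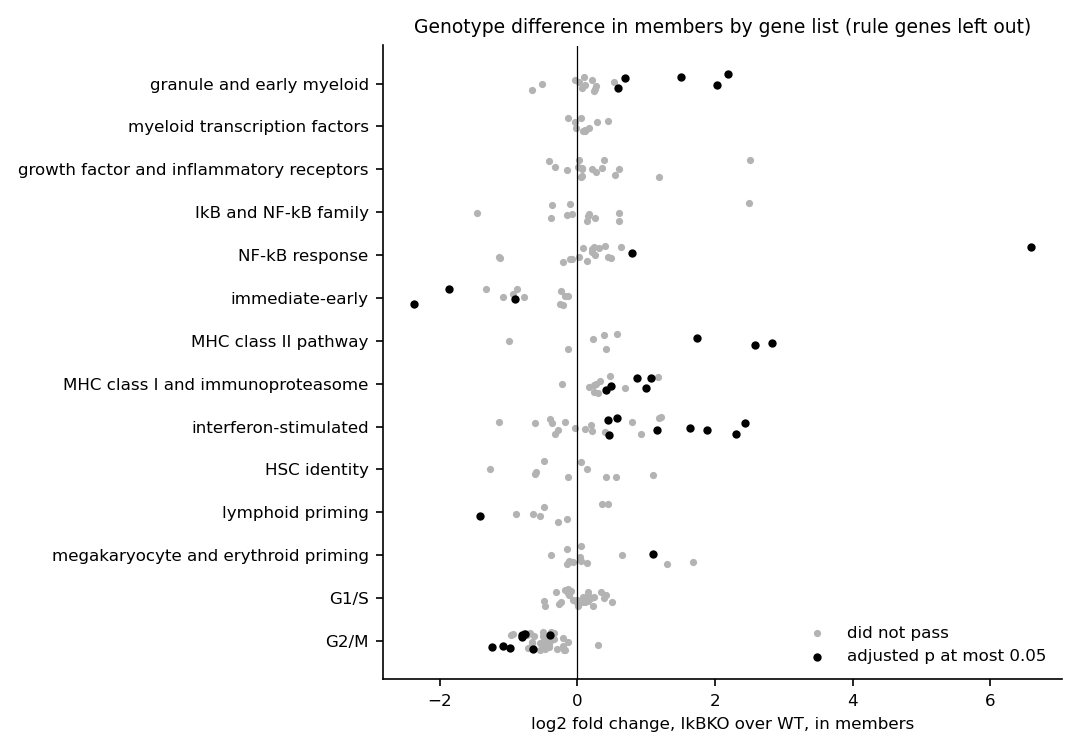
Log2 fold changes (IkBKO over WT) of the tested genes in 14 gene lists, 1 point per gene, with genes past the edgeR threshold in black and the genes of the selection rule left out. Immediate-early genes lie below 0 without exception and 39 of 40 G2/M genes do, whereas the antigen presentation and interferon lists lie mostly above 0. The median of the G2/M genes was above 0 when the IkBKO pool of replicate 1 was left out.

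All 13 immediate-early genes tested had values below 0, with a median of −0.87, and 3 of them fell: Fos, Fosb and Jun, which encode subunits of the AP-1 transcription factor. Over all genes tested 0.331% fell, and the median was 0.01. Fos was at 6.39 and 13.8 CPM in IkBKO pools against 49.2 and 15.5 CPM in WT pools, a fall of −2.37 ± 0.31 that lay mainly in replicate 1 and was −0.42, without passing, when the WT pool of replicate 1 was left out. Jun was at 57.9 and 76.3 CPM in IkBKO against 109 and 171 CPM in WT (−0.90 ± 0.19), without overlap, but passed in none of the fits that left out a pool. Fosb was at 4.05 and 9.94 CPM in IkBKO against 18.4 and 23.3 CPM in WT, and did not pass without the WT pool of replicate 2 (−1.42) or either pool of replicate 1. These genes also respond to cell handling, whose part in the result was not tested.

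Outside the lists, Crip1, a small LIM-domain protein (ENSMUSG00000006360, chromosome 12, 113146316 to 113153879), was at 174 and 133 CPM in IkBKO pools against 458 and 334 CPM in WT pools. The groups did not overlap, and the fall was −1.30 ± 0.13 (edgeR adjusted p = 2.57e-21). It was −1.57 without the WT pool of replicate 2, and it did not pass without the WT pool of replicate 1 (−0.88) or the IkBKO pool of replicate 2 (−1.10). Hmga2, a chromatin protein of fetal and proliferating stem cells, was at 19.8 and 48.5 CPM in IkBKO against 47.9 and 155 CPM in WT, and did not pass without the WT pool of replicate 2 (−0.52) or either pool of replicate 1. Ccnd1, which encodes cyclin D1, was at 11.9 and 20.1 CPM in IkBKO against 33.4 and 69.9 CPM in WT, and was lost in the same 3 fits (−1.08 without the WT pool of replicate 2).

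Of 40 genes of the G2 and M phases of the cell cycle tested, 8 fell and none rose, with a median of −0.50, while of 30 G1/S genes 0 passed, with a median of 0.04. Of all genes tested 0.331% fell, and the median over all of them was 0.01. Mki67, a coat protein of mitotic chromosomes, was at 130 and 311 CPM in IkBKO pools against 241 and 575 CPM in WT pools. It was thus lower in IkBKO cells within each library (−0.80 ± 0.13), but higher in IkBKO cells of replicate 2 than in WT cells of replicate 1. Summed over the 40 genes, the level was 3407 and 6818 CPM in IkBKO and 4938 and 8604 CPM in WT, so the libraries differed by more than the genotypes. Without the WT pool of replicate 2 none of the 40 passed and the median was 0.01, and without the IkBKO pool of replicate 1 none passed and the median was 0.30. WT cells of the population held more UMIs per cell, as given above, and the part of this in the result was not tested.

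Few genes of other lineages passed the test. Of 10 HSC identity genes 0 passed, with Hlf at −0.62 ± 0.20 (edgeR adjusted p = 0.115). Of 9 lymphoid priming genes, Ighm fell. Ighm, the immunoglobulin heavy chain whose sterile transcript is made in early lymphoid cells, was at 26.2 and 39.0 CPM in IkBKO pools against 51.8 and 218 CPM in WT pools, and did not pass without the WT pool of replicate 2 (−0.68) or the IkBKO pool of replicate 1 (−1.09). Of 13 megakaryocyte and erythroid genes, Tfrc, the transferrin receptor, rose by 1.10 ± 0.29, with 46.4 and 23.5 CPM in IkBKO against 21.0 and 23.3 CPM in WT. It passed in no fit that left out a pool (0.11 to 1.21), nor without the cells whose tags went against their call. Among marker lists of mature cells, Ms4a6c of the monocyte and dendritic list rose by 1.19 ± 0.20, at 118 and 97.2 CPM in IkBKO against 56.4 and 31.1 CPM in WT, and Mcpt8 of the basophil list rose by 0.96 ± 0.27. Ms4a6c did not pass without the WT pool of replicate 2 (0.94) or either pool of replicate 1, and Mcpt8 passed in no fit that left out a pool (0.38 to 2.82) and failed in 12 of 14 alternatives. None passed in the lists for haem synthesis (8 tested), protein folding and secretion (20) or the phagocyte NADPH oxidase (5).

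The same contrast was set beside the cells with less Mpo and the Elane-positive cells. In cells with 10 to 19 Mpo UMIs, 217 genes were higher in IkBKO (2.11% of 10295) and 144 lower (1.40%), and in Elane-positive cells 15 were higher (0.171% of 8753) and 26 lower (0.297%). The order of values below is Mpo-high Elane-low cells, cells with 10 to 19 Mpo UMIs, Elane-positive cells. AA465934 had log2 values of 4.04, 5.40 and 4.61, and Serpina3g of 1.90, 1.71 and 2.06. H2-Q7 had values of 1.07, 1.14 and 1.48, and Crip1 of −1.30, −1.29 and −1.27. These 4 genes passed in all 3 populations. Mki67 had values of −0.80, −0.22 and −0.04 and passed only in the first. All 3 populations come from the same libraries.

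A test of whether the genotype difference itself differed from that in Elane-positive cells called few genes. Of 9720 genes, 5 had a higher value in Mpo-high Elane-low cells (0.0514%) and 1 a lower value (0.0103%), Cd79a. Mpo is 1 of the 5, and since the selection rests on it, its value is no finding. There were 424 genes at an unadjusted p under 0.05. The smallest p was that of Ctsg, with a difference of 0.99 ± 0.14 (edgeR adjusted p = 1.07e-06), from 0.70 in Mpo-high Elane-low cells and −0.41 in Elane-positive cells, where it did not pass. The difference was 0.74 (adjusted p = 4.45e-10) without the WT pools of replicate 2, and did not pass without either IkBKO pair (1.03 and 1.09) or in DESeq2. The WT Elane-positive cells of replicate 2 were 6 cells, with the 13914 CPM of mature neutrophil genes given above. Cells enter the populations by Mpo and Elane, genes whose levels run with that of Ctsg, and their part in this difference was not tested.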

How the data were processed

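RNA of mouse LSK cells was counted in 2 droplet libraries, each holding IkBKO and WT cells. The deposited matrices are raw UMI counts per gene and barcode for 32285 genes, not normalized. Per the file headers they were written by Cell Ranger 6.0.0, while the submitters' processing notes name Cell Ranger 7.0, Seurat 4.3.0 and build mm10. Genotype and quality call were taken from the table the authors deposited, whose rules were not given in the sources used here. No doublet caller was run. The members and gene lists (24 lists) were chosen with earlier results of these data known.

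Counts were summed per library and genotype and tested with edgeR 4.0.16 in R 4.3.3 (quasi-likelihood F test, robust, TMM, filterByExpr, library as a block, two-sided, Benjamini-Hochberg adjusted p of at most 0.05). The 4 pools and the block leave each gene 1 residual degree of freedom, so edgeR's sharing of the spread across genes matters. The block was kept since IkBKO and WT cells of a replicate were run in the same library, per the labels. Deviations from the genotype means correlated at 0.165 between same-numbered pools over 9971 genes. The difference between populations was an interaction in a fit of 8 pools with the pool as a block, by the same test. DESeq2 1.42.0 was an alternative. On simulated counts of these pools, 96.4% of genes changed 4-fold and 0.0419% of unchanged genes were called. The simulation set the same spread for all genes and pools, not estimated from these data, so the real rates may differ.

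Named genes were the rule's genes, the 12 highest and 12 lowest called changes of the same direction in both libraries averaging 20 CPM or more in a genotype, the IκB and NF-κB family, up to 4 genes per list with the smallest p, and the 5 smallest p of the interaction per direction. Some others were named after their values were seen. Coordinates are from the GENCODE annotation of mm10, which held 32158 gene identifiers (99.6%).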

Additional observations from a re-analysis of the deposited data

Results flagged for a closer look

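For 5 genes besides Mpo, which the selection rule used, the test of the difference itself called a genotype effect in Mpo-high Elane-low cells that differed from that in Elane-positive cells (edgeR, 8 pools). DESeq2 called none of them, and 61 genes of that fit had an unadjusted p under 0.05.

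Ctsg differed by 0.99 ± 0.14, with the values given above. Igsf6 differed by 1.92 ± 0.43 (edgeR adjusted p = 0.019), with 2.04 in Mpo-high Elane-low cells and −0.23 in Elane-positive cells. Cd63, a tetraspanin of granule membranes, differed by 0.90 ± 0.19 (edgeR adjusted p = 0.015). It was at 122 and 113 CPM in IkBKO and 169 and 148 CPM in WT Mpo-high Elane-low cells, and at 234 and 212 CPM in IkBKO and 485 and 985 CPM in WT Elane-positive cells, where it fell by −1.63. Gstm1, a glutathione transferase, differed by 1.09 ± 0.24 (edgeR adjusted p = 0.036). It was at 59.0 and 51.1 CPM in IkBKO and 47.2 and 31.1 CPM in WT Mpo-high Elane-low cells, and at 214 and 272 CPM in IkBKO and 356 and 741 CPM in WT Elane-positive cells.

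For Igsf6, Cd63 and Gstm1 the WT Elane-positive pool of replicate 2, of 6 cells, was the highest of the 4 pools of its population. Without the WT pools of replicate 2 the differences were 2.13, 0.65 and 0.88, and each still passed, whereas without an IkBKO pair none of the 3 did. Igsf6 was also lost without the WT pools of replicate 1 (1.21) and was at 0.11 with cells thinned before the rule. Against cells with at least 20 Elane UMIs none of the 3 passed (edgeR adjusted p of 0.13 for Igsf6, 0.24 for Cd63 and 0.20 for Gstm1). Cd79a, a B cell receptor chain, differed by −8.27 ± 1.69 (edgeR adjusted p = 0.0070), but 1 IkBKO Elane-positive cell of replicate 2 held 12 of its UMIs, and 1 WT Mpo-high Elane-low cell of replicate 1 held 11 of 12.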

How the results depend on the processing

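With edgeR, 63 genes were higher and 33 lower in IkBKO cells. Without the replicate block, which stands for the shared library, the counts were 8 and 2. They were 9 and 4 with DESeq2 and the block, 9 and 2 with each cell thinned to 6000 UMIs after selection, 1 and 1 with cells thinned before the rule, 28 and 19 with the thinned, scaled rule, 339 and 222 with Mpo of at least 10, and 5 and 1 with Mpo of at least 40. Without cells of very high UMI counts 16 were lower, and without the cells whose tags went against their call (chosen after seeing the data) 39 were higher and 15 lower. Leaving out 1 pool gave 6 to 35 higher and 4 to 25 lower, with a lone pool assumed to vary like the others. Thinning before the rule, or Mpo of at least 40, leaves a WT pool of 1 cell in replicate 2.

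The difference between populations had 0 calls in both directions with DESeq2 (61 at an unadjusted p under 0.05) and with cells thinned before the rule (152). It had 1 higher gene against cells with at least 20 Elane UMIs and 9 with the scaled rule, and leaving out a pair of pools gave 0 to 58 higher and 0 to 19 lower.

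The ratio of the shares, 10.5 as a geometric mean over the libraries, was 3.14 without replicate 2 and 35.0 without replicate 1. It was 17.3 with cells thinned before the rule, 3.49 with Mpo of at least 10, 16.9 with Mpo of at least 40 and 6.04 with the scaled rule.

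Signs turned for a few named genes. Over the fits that left out a pool, log2 values ran from −1.99 to 0.38 for Aspm, −1.73 to 0.25 for Cenpf, −1.75 to 0.17 for Ckap2l, −1.54 to 0.30 for Kif20a, −1.46 to 0.45 for Ube2c and −0.16 to 2.38 for Mt1. With cells thinned before the rule Ctsg was at −0.041, Ighm at 0.16 and Ly6e at −0.22, and with Mpo of at least 40 Kif20a was at 0.21. The cause was not tested. TMM against RLE scaling kept the call of all 43 named genes, no filter that of 39 and the limit of 2 Elane UMIs that of 40.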

Other observations

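Cells with at least 20 Mpo UMIs numbered 1473 and 510 in IkBKO and 339 and 40 in WT. The Mpo-high Elane-low cells were 18.4% and 44.7% of them in IkBKO and 23.9% and 15% in WT, so within Mpo-high cells their share was lower in IkBKO in replicate 1 and higher in IkBKO in replicate 2. Of the same cells, 967 and 147 in IkBKO and 190 and 23 in WT had at least 5 Elane UMIs, and 944 and 210 in IkBKO and 157 and 25 in WT had at least 3 Irf8 UMIs.

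Ffar2, a receptor for short-chain fatty acids, was at 73.9 and 67.6 CPM in IkBKO Mpo-high Elane-low cells against 31.5 and 15.5 CPM in WT, and rose by 1.37 ± 0.25. Casp4, an inflammatory caspase, was at 27.3 and 22.8 CPM in IkBKO against 10.5 and 7.77 CPM in WT and rose by 1.45 ± 0.36. Both passed in edgeR and were named after their values were seen. Ffar2 was lost without either pool of replicate 1 (1.16 and 2.42), and Casp4 when any 1 pool was left out (1.10 to 1.92). Likewise Gm47283 (−4.71) and Mid1 (−5.06), which had the lowest called values, lie near the pseudoautosomal border, where reads may be shared between copies, and are uncertain.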
